A study of Mus musculus with 16 samples.

Results

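The heat shock genes examined here were 10 genes taken by symbol from the 47719 genes with raw counts in a mouse liver RNAseq table, and all 10 had enough counts to be tested among 15684 genes. They were Hspa1a and Hspa1b (inducible HSP70), Hspa8 (constitutive HSC70), Hsph1 (HSP110), Dnajb1 (HSP40), Hsp90aa1 and Hsp90ab1 (the inducible and the constitutive cytosolic HSP90), Hspb1 (the small heat shock protein HSP25), Hspe1 and Cirbp. Of these, 8 encode cytosolic chaperones. Hspe1 encodes the HSP10 co-chaperonin of mitochondria, and Cirbp encodes an RNA-binding protein that cells make more of when they are cooled, so the name cytosolic heat shock protein does not describe these 2.

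Chaperones of the HSP70 and HSP90 families bind unfolded or partly folded proteins, and co-chaperones of the HSP40, HSP110 and small heat shock protein families pass clients to them or help release them. When unfolded proteins accumulate, the transcription factor HSF1 forms trimers and binds heat shock elements, which are inverted repeats of the letters GAA, in the promoters of these genes. In rodent liver, heat shock genes also cycle every day with body temperature, and Cirbp cycles in the opposite direction.

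The study asked how the liver of young and older mice responds to diethylnitrosamine (DEN), a carcinogen that liver enzymes convert into an agent that alkylates DNA. All mice were wild-type C57BL/6 males, and DEN was injected into the peritoneum at 25 mg/kg body weight by the sample labels, while the methods of the study print mg/g. At 1 month (3 to 4 weeks by the labels) and at 6 months there were 2 control libraries, 3 libraries from day 2 after DEN and 3 from day 6, which gave 16 libraries in 6 groups. For each library, RNA of 3 mice was pooled in equal shares, so a spread given here is one between pools. The controls have a single time point of 0, so days after injection and days of age cannot be told apart, and the hour of the day at which livers were taken was not given in the sources used here. Total counts were 19039330 to 34459774 per library.

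Levels are counts per 1000000 counts (CPM) over library sizes scaled by TMM, a method that sets libraries on a common scale by trimmed mean ratios. Hepatocyte markers (9 genes) summed to 56630 to 93784 CPM in every library, while 6 markers of skeletal muscle and skin summed to at most 1.18 CPM.

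The promoters below show whether the HSF1 letters lie near the start site. Their part in how these genes moved between libraries of the same group was not tested. Sequences are from RefSeq on GRCm38.p6, 5′ to 3′ on the strand of the gene, with matches to GAANNTTC or TTCNNGAA in capitals. Both forms read the same on either strand, they can overlap each other, and together they were found in 15.1% of 32851 windows of 300 bases (250 before to 50 after a start site). The promoter table held 7 of the 10 genes. Hspa8, Hsp90aa1 and Hsp90ab1 had no entry. Of the 7 genes, 5 held at least 1 match.
Hspa1a, chr17:34972157-34972306, minus strand, bases -150 to -1: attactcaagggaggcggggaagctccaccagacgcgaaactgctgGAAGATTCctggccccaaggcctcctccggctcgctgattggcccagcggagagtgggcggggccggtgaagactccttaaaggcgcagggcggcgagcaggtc
Hspa1b, chr17:34959239-34959388, minus strand, bases -150 to -1: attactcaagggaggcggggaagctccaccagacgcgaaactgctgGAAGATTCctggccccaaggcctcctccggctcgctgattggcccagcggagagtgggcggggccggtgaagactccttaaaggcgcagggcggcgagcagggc
Hspb1, chr5:135887769-135887918, plus strand, bases -150 to -1: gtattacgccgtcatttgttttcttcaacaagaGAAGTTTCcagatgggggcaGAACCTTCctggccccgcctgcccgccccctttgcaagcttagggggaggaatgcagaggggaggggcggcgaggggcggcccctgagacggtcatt
Hsph1, chr5:149636351-149636380, minus strand, bases -44 to -15: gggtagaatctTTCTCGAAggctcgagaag
Hspe1, chr1:55088053-55088082, plus strand, bases -95 to -66: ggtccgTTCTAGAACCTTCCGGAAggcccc
Hspa1a and Hspa1b shared 149 of 150 bases before the start site, with the match at base -104 in both. Hspb1 held a pair of matches at bases -117 and -97. Hspe1 held 3 overlapping matches that start at bases -89, -84 and -79. Hsph1, counted from the first of its 2 start sites, held the match at base -33 and further matches after its start site. The windows of Dnajb1 and Cirbp held neither form, which says only that these letters are not in those windows.

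Across the 16 libraries, most of the 10 genes varied more between libraries of the same group than the median gene tested. The SD within groups on the log2 scale was 1.23 for Hspa1a and 1.22 for Hspa1b, 0.802 for Hsph1, 0.592 for Hsp90aa1, 0.510 for Dnajb1 and 0.420 for Hspa8, against a median of 0.271 over all genes tested. It was 0.254 for Hsp90ab1 and 0.168 for Hspe1, both below that median. Hspb1 (0.463) and Cirbp (0.472) were above it. Per kilobase of exon, the median level over the libraries ran from 354 CPM per kb for Hsp90ab1, 302 for Hspa8 and 145 for Hspe1 through 50.6 for Hsp90aa1, 19.95 for Hsph1, 10.3 for Cirbp and 8.97 for Dnajb1 to 6.47 for Hspa1b, 4.96 for Hspb1 and 0.492 for Hspa1a. The ranges over libraries of neighbours in this order overlapped, apart from Hspe1 (128.6 to 212) and Hsp90aa1 (26.1 to 90.0) and apart from Hspb1 (1.43 to 14.6) and Hspa1a (0.0845 to 1.29).

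**Figure D1:**
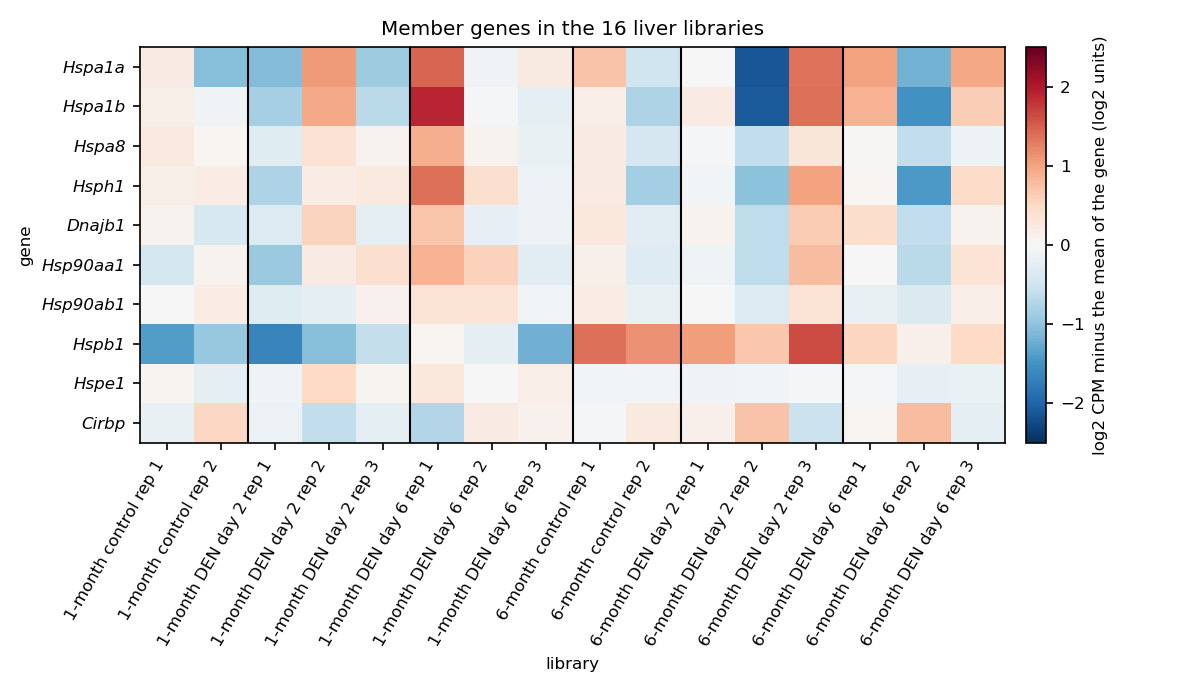
Each column is 1 of the 16 libraries, each row a gene, and the colour is log2 CPM minus the mean of the gene over all libraries (log2 units), with black lines between the 6 groups. 1-month DEN day 6 replicate 1 and 6-month DEN day 2 replicate 3 are high for Hspa1b and Hsph1 and low for Cirbp, 6-month DEN day 2 replicate 2 and 6-month DEN day 6 replicate 2 are the reverse, and the row of Hspb1 changes colour between the ages.

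Hspa1b (ENSMUSG00000090877, chromosome 17 of GRCm38 from 34956436 to 34959238) and Hspa1a (ENSMUSG00000091971, chromosome 17 from 34969190 to 34972156) encode the HSP70 that cells make under stress. In the 1-month groups, Hspa1b was measured at 19.2 and 16.3 CPM in control replicates 1 and 2, at 9.75, 33.4 and 10.8 CPM in DEN day 2 replicates 1 to 3 and at 65.3, 17.0 and 14.7 CPM in DEN day 6 replicates 1 to 3. In the 6-month groups it was measured at 19.5 and 10.2 CPM in the controls, at 20, 3.97 and 45.5 CPM on day 2 and at 31.8, 6.05 and 26.4 CPM on day 6. The range between the lowest and the highest library was 16.5-fold, and the 6-month DEN day 2 group alone ran from 3.97 to 45.5 CPM. Hspa1a followed the same libraries at 0.251 to 3.84 CPM (6 to 108 counts). Of the stretches of 75 bases in the Hspa1a transcript, 52.7% are also in Hspa1b, so reads may be split or lost between both genes, and their separate levels are uncertain. A further gene, Gm20481, lies on the opposite strand over 2225 bases of Hspa1a, and whether counting used strand was not given in the sources used here.

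Hsph1 (ENSMUSG00000029657, chromosome 5 from 149614287 to 149636376) encodes HSP110, which releases ADP from HSP70. Its level was 83.0 and 85.5 CPM in the 1-month controls, 43.7, 85.6 and 88.4 CPM on day 2 and 195 CPM in replicate 1 on day 6, with 98.5 and 67.6 CPM in replicates 2 and 3 of that day. At 6 months it was 86.7 and 41.6 CPM in the controls, 71.3, 36.9 and 150 CPM (149.8) on day 2 and 77.2, 27.7 and 103 CPM on day 6. The highest and the lowest library of all 16 differed 7.02-fold, and the libraries of the groups compared overlapped.

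Hspa8 (ENSMUSG00000015656, chromosome 9 from 40800984 to 40805200) encodes HSC70, the abundant HSP70 of unstressed cells, and Dnajb1 (ENSMUSG00000005483, chromosome 8 from 83608175 to 83611902) encodes the HSP40 that stimulates its ATPase. Hspa8 was measured at 837 and 727 CPM in the 1-month controls, at 568, 903 and 745 CPM on day 2 and at 1325, 749.5 and 621 CPM on day 6. At 6 months Hspa8 stood at 807 and 523 CPM in the controls, 687, 459 and 871 CPM on day 2 and 719, 456 and 643 CPM on day 6. Over all 16 libraries, the highest (1-month DEN day 6 replicate 1) and the lowest (6-month DEN day 6 replicate 2) were the same as for Hsph1. Within groups the highest library could differ, as in 6-month DEN day 6, with replicate 1 for Hspa8 and replicate 3 for Hsph1. Dnajb1 was measured at 31.0 and 22.3 CPM, 23.2, 43.0 and 25.1 CPM, and 47.3, 25.3 and 26.5 CPM in the 1-month control, day 2 and day 6 libraries. At 6 months the values of Dnajb1 were 35.0 and 24.2 CPM, 31.4, 18.8 and 45.4 CPM, and 39.8, 19.2 and 31.1 CPM in the same order. For both genes the libraries of the groups compared overlapped.

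Hsp90aa1 (ENSMUSG00000021270, chromosome 12 from 110690605 to 110702728) encodes the inducible cytosolic HSP90. It was measured at 123 and 177 CPM in the 1-month controls, at 88.2, 193 and 221 CPM on day 2 and at 304, 249.9 and 138 CPM on day 6. At 6 months it was measured at 182 and 132 CPM in the controls, at 155, 108 and 286 CPM on day 2 and at 165, 105 and 211 CPM on day 6. Unlike for Hspa1b and Dnajb1, replicate 2 of the 1-month controls and replicate 3 of 1-month DEN day 2 lay above the other libraries of their groups. Hsp90ab1 (ENSMUSG00000023944, chromosome 17 from 45567775 to 45573271), the constitutive HSP90, varied only between 698 and 1128 CPM, and Hspe1 (ENSMUSG00000073676, chromosome 1 from 55088132 to 55091307) between 99.6 and 164 CPM. Hspe1 overlaps Hspd1, which encodes the HSP60 partner of HSP10, by 112 bases on the opposite strand.

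Cirbp (ENSMUSG00000045193, chromosome 10 from 80165985 to 80172786) was measured at 12.01 and 19.5 CPM in the 1-month controls, at 12.3, 8.86 and 11.6 CPM on day 2 and at 8.16, 15.7 and 14.7 CPM on day 6. At 6 months it was measured at 13.1 and 16.04 CPM in the controls, at 14.8, 22.2 and 9.39 CPM on day 2 and at 14.1, 23.2 and 11.6 CPM on day 6. Its lowest library, 1-month DEN day 6 replicate 1, was the library in which 6 other genes (Hspa1a, Hspa1b, Hspa8, Hsph1, Dnajb1 and Hsp90aa1) and also Hsp90ab1 were highest of all 16. Its highest library, 6-month DEN day 6 replicate 2, held the lowest level of all 9 other genes within its group.

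The comparisons of DEN with controls ask whether the heat shock genes took part in the response of either age. None of the 10 genes passed an adjusted p under 0.1 (edgeR's quasi-likelihood test, adjusted by Benjamini-Hochberg) in 1-month mice on day 2 or 6 or in 6-month mice on day 2 or 6, and DESeq2 called 0 of them as well. An unadjusted p under 0.05 was found for 1 gene in 1 of these 4 comparisons, Hspb1 on day 6 at 6 months. Of all genes tested, 0.0191%, 0%, 0.319% and 0.249% were called in the same 4 comparisons. On day 6 at 1 month, where edgeR called 0 genes of all, 426 had an unadjusted p under 0.05 and DESeq2 called 19. As the tissue was measured in bulk, fewer cells of a type and less RNA per cell cannot be told apart in any of these values.

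Leaving Hspb1 aside, log2 fold changes against controls ran from -0.53 (SE 0.37, Cirbp on day 2 at 1 month) to 1.03 (SE 0.96, Hspa1a on day 6 at 1 month). The standard errors were 0.93 to 0.97 for Hspa1a and 0.89 to 0.91 for Hspa1b, so that a log2 change of 1 in inducible HSP70 would be about 1 standard error, against 0.16 for Hspe1. On day 6 at 1 month, 9 of 10 genes had a positive fold change, with a median of 0.41 against -0.01 over all genes. That group includes the library with the highest Hspa1b, Hsph1 and Hspa8 of all 16. Day 6 against day 2 called 0 of the 10 genes at either age, beside 0.00638% and 0.0128% of all genes. A difference between the ages in the response did not pass for any of them (0.00638% of all genes called on day 2 and 0.0128% on day 6), with DESeq2 calling 0 in these 4 comparisons too and an unadjusted p under 0.05 only for Hspb1, in the 2 that involve day 6 of the 6-month mice.

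**Figure D2:**
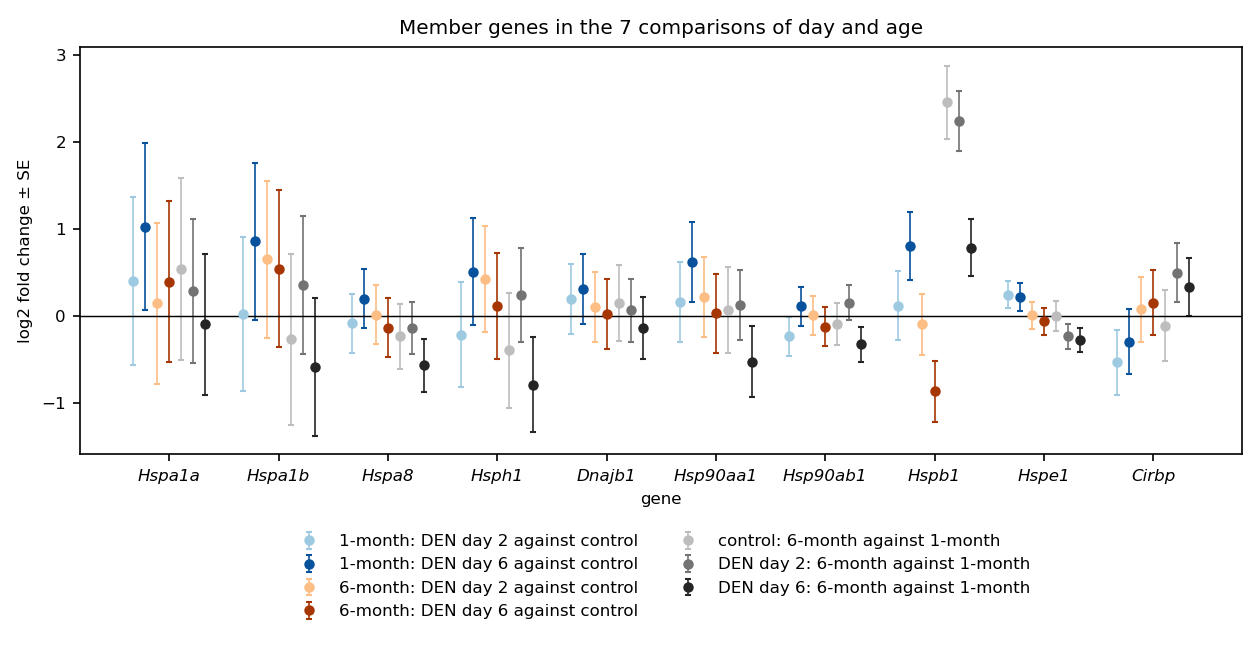
Points are log2 fold changes of the 10 genes from edgeR's fit and bars are 1 standard error on either side, with blue for DEN against controls at 1 month, orange for DEN against controls at 6 months and grey to black for 6 months against 1 month. The 2 points of Hspb1 for the controls (2.46) and day 2 (2.25) lie above all others.

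Hspb1 (ENSMUSG00000004951, chromosome 5 from 135887919 to 135889563) encodes HSP25, a small chaperone that holds unfolded proteins and is abundant in muscle. It was measured at 1.76 and 2.45 CPM in the 1-month controls, at 1.47, 2.26 and 3.14 CPM on day 2 and at 4.99, 4.10 and 2.04 CPM on day 6. At 6 months it was measured at 12.6 and 10.7 CPM in the controls, at 9.92, 7.68 and 15.1 CPM on day 2 and at 7.02, 5.25 and 6.85 CPM on day 6. Every 6-month library lay above every 1-month library, with 5.25 CPM as the lowest of the older and 4.99 CPM as the highest of the younger mice. Counts were 32 to 455 per library.

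In control livers Hspb1 rose with age from 2.11 ± 0.483 (SD, n = 2) to 11.7 ± 1.33 CPM (SD, n = 2), a log2 fold change of 2.46 (SE 0.42, adjusted p = 0.0100, edgeR's quasi-likelihood test). It was the only one of the 10 genes called, beside 2.67% of all genes. On day 2 after DEN Hspb1 rose from 2.29 ± 0.833 (SD, n = 3) to 10.9 ± 3.80 CPM (SD, n = 3), a log2 fold change of 2.25 (SE 0.34, adjusted p = 0.00226, edgeR), again as the only gene of the 10 beside 5.9% of all genes. On day 6 the levels were 3.71 ± 1.51 and 6.37 ± 0.979 CPM (SD, n = 3 each), and the log2 fold change of 0.79 (SE 0.33) did not pass (adjusted p = 0.260, edgeR), where 4.47% of all genes did. No other gene of the 10 passed in a comparison of the ages, with log2 fold changes from -0.79 (Hsph1 on day 6, SE 0.54) to 0.54 (Hspa1a in controls, SE 1.05), and DESeq2 called the same number in each. Hspe1 on day 6 was measured at 118 to 139 CPM at 1 month and at 102 to 114 CPM at 6 months. Its log2 fold change of -0.28 (SE 0.14) missed the threshold (adjusted p = 0.375, edgeR).

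Among the 6-month groups, Hspb1 was at 5.25 to 7.02 CPM on day 6, at 10.7 to 12.6 CPM in the controls and at 7.68 to 15.1 CPM on day 2. The log2 fold changes of Hspb1 were -0.87 (SE 0.35) against controls and -0.77 (SE 0.32) against day 2, each with an adjusted p of 1 from edgeR, so the fall did not pass over all genes. The change from controls to day 6 differed between the ages by -1.67 on the log2 scale (SE 0.53), which did not pass over all 15684 genes (adjusted p = 1.00, edgeR).

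**Figure D3:**
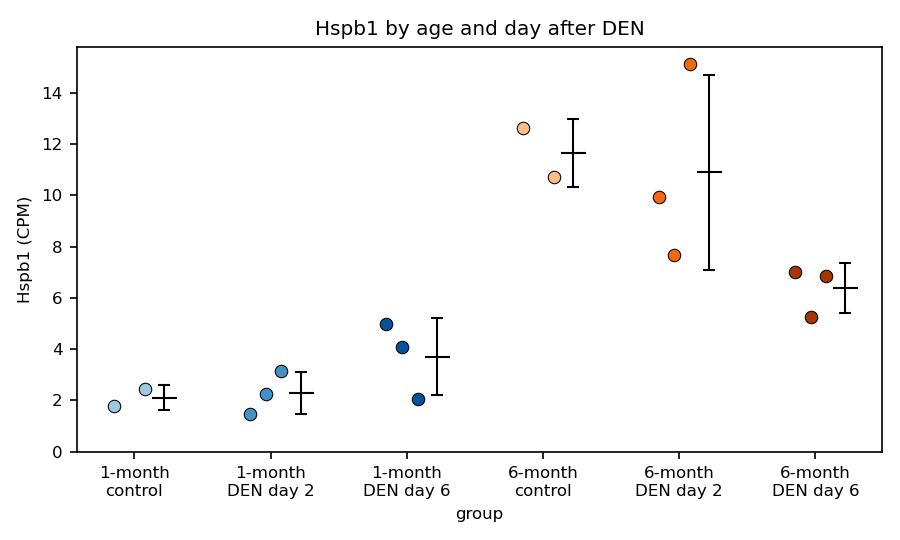
Circles are the CPM of Hspb1 in each library of the 6 groups, and the dash and bars beside them are the mean and 1 SD. The 1-month libraries sit between 1.47 and 4.99 CPM and the 6-month libraries between 5.25 and 15.1 CPM.

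Markers of other cells moved with age too, and their part in the change of Hspb1 was not tested. Lymphocyte markers (6 of 7 tested) summed to 3.45 to 5.78 CPM in the 1-month and 6.31 to 13.2 CPM in the 6-month libraries, and Nkg7, of cytotoxic lymphocytes, rose in all 3 comparisons of age, Cd3e in those of days 2 and 6. Among 7 stellate cell markers, which summed to 315 to 482 and 269 to 459 CPM, the collagens Col3a1 and Col1a1 fell in all 3 and the pericyte gene Rgs5 rose on days 2 and 6. Hepatocyte markers summed to 64265 to 93784 CPM at 1 month and 56630 to 61927 CPM at 6 months, and of these Ahsg fell in all 3 comparisons and Ttr on day 2. Smooth muscle markers, from a tissue rich in HSP25, summed to 6.99 to 16.2 CPM at 1 month and 5.98 to 13.8 CPM at 6 months. Of the 3 tested, edgeR called 0 in the comparisons of age, beside 2.67% (controls), 5.9% (day 2) and 4.47% (day 6) of all genes. Tspan8 of cholangiocytes rose and Lyve1 of sinusoidal endothelium fell on day 6, and the adipocyte gene Cfd was at 1.11 to 2.29 CPM in the 6-month controls and at 0 to 0.153 CPM in the 1-month controls, while Adipoq was at 0 in the controls of both ages. Cfd was also called lower on day 6 than in controls at 6 months (adjusted p = 0.0910, edgeR), at 0 to 0.0809 CPM on day 6. In that comparison the fall of Hspb1 did not pass. Of the macrophage, neutrophil, erythroid and pancreas markers tested, 0 were called. At the shares of all genes called between the ages (2.67% to 5.9%), counts of 0 in such short lists are near the background.

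The daily cycle bears on these genes because the libraries differed in clock phase. Dbp, a clock output gene, and Arntl, which encodes the clock activator BMAL1 and peaks at the opposite time of day, were used to place each library. Dbp was at 1.87, 0.871 and 0.376 CPM in 1-month control replicate 2, 1-month DEN day 2 replicate 3 and 1-month DEN day 6 replicate 2, which had Arntl at 31.0, 35.2 and 37.8 CPM. The other 1-month libraries had Dbp at 71.2 CPM (control replicate 1), 128 and 89.9 CPM (day 2 replicates 1 and 2) and 28.1 and 58.5 CPM (day 6 replicates 1 and 3), with Arntl at 0.805, 1.15, 0.839, 4.61 and 10.7 CPM in the same order. These 3 libraries with low Dbp therefore stood apart in clock phase from the rest of their groups.
At 6 months Dbp was at 25.8 and 46.5 CPM in the controls, 54.7, 77.6 and 6.24 CPM on day 2 and 80.3, 39.7 and 14.3 CPM on day 6. Arntl was at 10.4 and 10.9 CPM, 1.22, 4.93 and 22.4 CPM, and 1.15, 12.9 and 16.2 CPM in the same libraries. The 6-month libraries spanned a narrower range of phase. Hspb1 was still higher at 6 months on day 2 without the 3 libraries of low Dbp, with a log2 fold change of 2.52 (adjusted p = 0.00844, edgeR). In controls the log2 fold change was then 2.71, with control replicate 1 as the only 1-month control left. With clock phase, taken as log2 CPM of Dbp minus that of Arntl, as a covariate, the age difference of Hspb1 on day 6 also passed (log2 fold change 0.95, adjusted p = 0.0847, edgeR). That fit called 1344 genes of all tested in this comparison, against 701 without the covariate.

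Within groups, none of the 10 genes passed an adjusted p under 0.1 for a linear relation to clock phase. A cycling gene that peaks midway between Dbp and Arntl would show no linear relation to their difference. The test therefore cannot tell whether these genes follow the daily cycle, and it was chosen with earlier results of these data known. Correlations were taken over 16 libraries after the mean of each group was removed, and tested by an exact permutation of libraries within groups (two-sided, 5184 arrangements, smallest possible p = 0.000193). Of the 10 genes, 5 had a positive and 5 a negative r, from -0.61 for Hsp90ab1 to 0.46 for Hspe1, and the smallest adjusted p was 0.260, by the exact permutation test. Before adjustment, Hsp90ab1 alone had a p under 0.05 (r = -0.61, p = 0.0260, and rho = -0.51, p = 0.0521, exact permutation). Hspb1 had r = -0.57 and Hsp90aa1 r = -0.52. Cirbp had r = -0.17 (p = 0.592) and rho = -0.25 (p = 0.447) by the same exact permutation test. Without the 2 libraries farthest from the median phase, r was -0.51 for Hsp90ab1 and 0.02 for Cirbp.

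Rbm3, the other well-known cold-inducible RNA-binding protein gene, did follow clock phase. It was measured at 66.5 and 40.8 CPM in the 1-month controls, at 57.7, 66.1 and 37.3 CPM on day 2 and at 63.8, 32.2 and 49.9 CPM on day 6. At 6 months it was measured at 60.8 and 70.4 CPM in the controls, at 66.3, 70.2 and 51.5 CPM on day 2 and at 82.7, 72.2 and 55.3 CPM on day 6. The 3 libraries with low Dbp were the lowest of their groups. The relation of Rbm3 to clock phase, chosen after its values were seen, had r = 0.94 and rho = 0.91, with adjusted p = 0.00231 and 0.00309 over the 2 relations of Rbm3 (exact permutation within groups), and r = 0.88 without the 2 farthest libraries. Its relation to Cirbp had r = -0.20 and rho = -0.29 and did not pass (adjusted p = 0.556 and 0.385, exact permutation). A common movement of Rbm3 and Cirbp, both induced by cold, was thus not detected in these libraries.

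**Figure D4:**
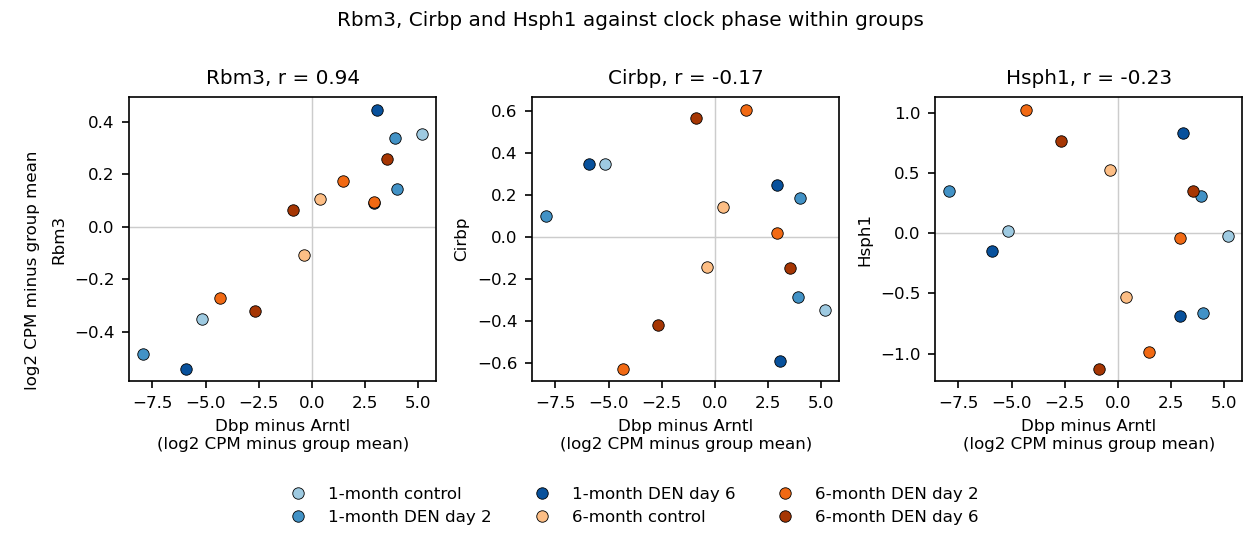
Each circle is 1 of the 16 libraries, coloured by group, with clock phase (log2 CPM of Dbp minus Arntl) on the x axis and Rbm3, Cirbp or Hsph1 (log2 CPM) on the y axes, each as the difference from its group mean. Rbm3 rises along the axis (r = 0.94), while Cirbp (r = -0.17) and Hsph1 (r = -0.23) do not line up with it. A cycling gene that peaks midway between Dbp and Arntl would not line up either.

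Cirbp and the heat shock genes moved in opposite directions from library to library. Over the 16 libraries, with group means removed, all 9 other genes had a negative r with Cirbp. Of these, 8 passed an adjusted p under 0.1 over the 9 relations (exact permutation within groups). The relations to Cirbp were chosen with earlier results of these data known. Hspa1a had r = -0.94 and rho = -0.94, with an adjusted p of 0.00304 for r and 0.00217 for rho (exact permutation). Dnajb1 had r = -0.93 and rho = -0.91, Hspa1b r = -0.92 and rho = -0.90, Hspa8 r = -0.88 and rho = -0.89, and Hsph1 r = -0.87 and rho = -0.84. Weaker relations were found for Hsp90aa1 (r = -0.66), Hsp90ab1 (r = -0.61) and Hspe1 (r = -0.54), with adjusted p of 0.0419, 0.0714 and 0.0185 (exact permutation), while Hspb1 (r = -0.53, adjusted p = 0.103, exact permutation) did not pass. In a group of 2 libraries the deviations mirror each other, so the 16 points are fewer than 16 independent ones.

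Without the 2 libraries farthest from the median of Cirbp, which were 1-month DEN day 6 replicate 1 and 6-month DEN day 2 replicate 3, r was -0.93 for Hspa1a, -0.87 for Dnajb1, -0.85 for Hspa1b, -0.78 for Hspa8 and -0.77 for Hsph1, and these 5 passed. The relations of Hsp90aa1 (r = -0.44) and Hsp90ab1 (r = -0.41) no longer passed, so their calls depend on which libraries are included. That of Hspe1 did not pass with these 14 libraries either, although its r was no weaker (-0.55). With 1 library left out at a time, Hsp90ab1 lost its call for 7 of 16 libraries and Hsp90aa1 for 2 (6-month DEN day 2 replicate 3 and 6-month DEN day 6 replicate 2), while the HSP70, HSP110, HSP40 and HSP10 genes kept theirs. Without the 3 libraries of low Dbp, r was -0.96 for Hsp90aa1, -0.93 for Hsp90ab1 and -0.91 for Hspb1, with adjusted p = 0.00893 for each by the exact permutation test, and 8 of the 9 relations passed, this time without Hspe1 (r = -0.41).

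**Figure D5:**
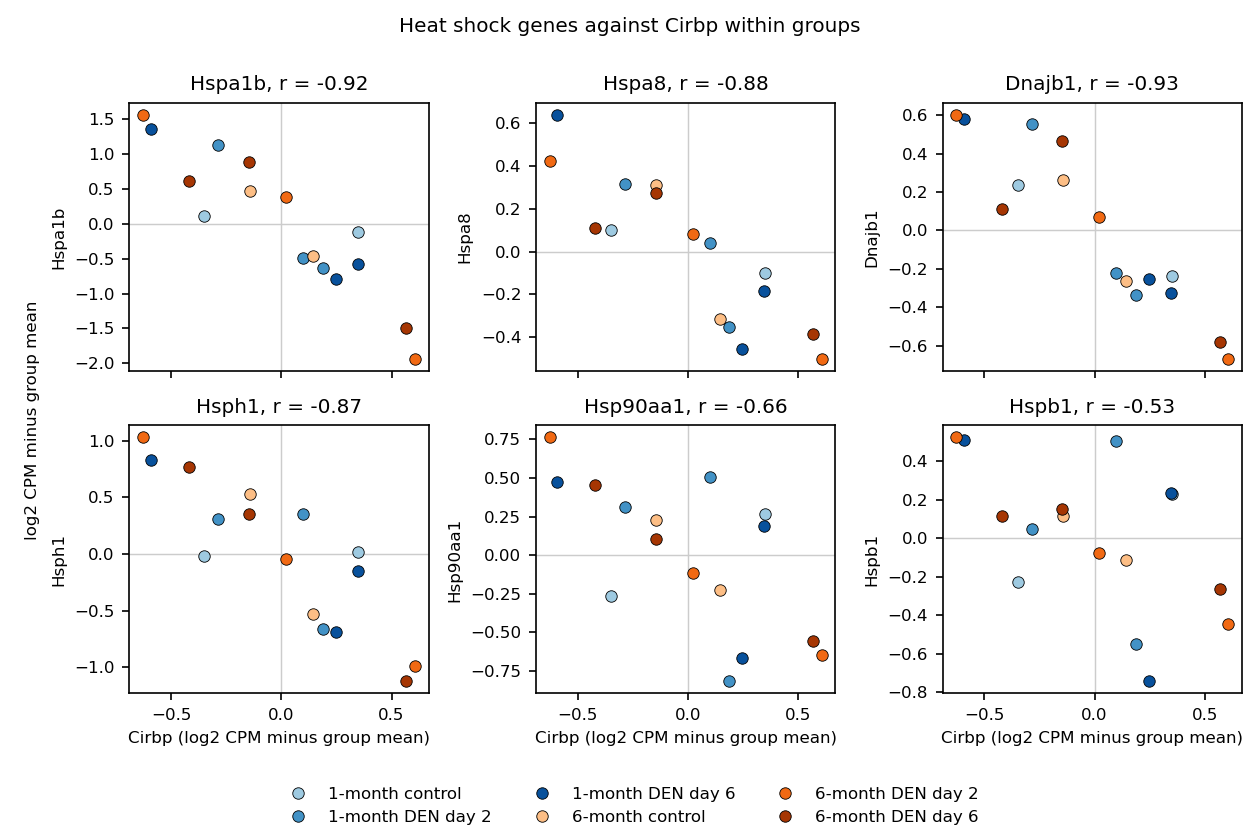
Each circle is 1 of the 16 libraries, coloured by group, with Cirbp on the x axes and 6 of the other genes on the y axes, all in log2 CPM minus the group mean. Hspa1b, Hspa8, Dnajb1 and Hsph1 fall along the axis, while for Hsp90aa1 (r = -0.66) and Hspb1 (r = -0.53) some 1-month libraries lie off the line.

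The order of libraries inside each group showed the same opposition in some groups and a looser one in others. In 1-month DEN day 6 replicate 1 and in 6-month DEN day 2 replicate 3, all 9 other genes were at their highest in the group and Cirbp at its lowest. In 1-month DEN day 2 replicate 1 and 6-month DEN day 6 replicate 2, all 9 were at their lowest and Cirbp at its highest, and in 6-month DEN day 2 replicate 2 this held for 8 of 9. The 2 controls at 6 months split in the same way, with 8 of 9 genes higher in replicate 1 and Cirbp higher in replicate 2. The 1-month controls, in which the order of Dbp and Arntl was reversed between the replicates, did not, with 5 genes higher in replicate 1 and 4 in replicate 2. In 1-month DEN day 2 replicate 2, where Cirbp was lowest, 5 of 9 genes were highest. In 1-month DEN day 6 replicate 2, where Cirbp was highest, 3 of 9 were lowest, while 6 were lowest in replicate 3. In 6-month DEN day 6 replicate 3, where Cirbp was lowest, 3 of 9 were highest, while 6 were highest in replicate 1.

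Among the 9 genes other than Cirbp, 28 of 36 pairs passed an adjusted p under 0.1 (exact permutation within groups), all with a positive r and with a median r of 0.75 over the 36 pairs. These pairs were chosen after the values were seen. The HSP70 and HSP40 genes formed close pairs, with r = 0.97 for Hspa1a and Dnajb1, 0.97 for Hspa1b and Dnajb1 and 0.93 for Hspa8 and Dnajb1. The HSP90 genes were closer to Hspb1, with r = 0.94 for Hsp90aa1 and Hspb1 and 0.89 for Hsp90aa1 and Hsp90ab1, while Dnajb1 had r = 0.55 with Hspb1 and 0.52 with Hsp90ab1. Hsph1 was close to both sets, with r = 0.92 to Hspa8 and 0.91 to Hsp90aa1. Over the 28 pairs without Hspe1 the median r was 0.85, with 0.50 as the lowest, and without the 3 libraries of low Dbp it was 0.93 with 0.80 as the lowest. The 8 pairs with Hspe1 had a median r of 0.43, and 4 of them passed.

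The genes most like Hsph1 within groups, out of 9360 other genes with a mean of at least 5 CPM, were led by Chordc1 (r = 0.99), which encodes an HSP90 co-chaperone, and included Ahsa2 (0.94), of the activators of the HSP90 ATPase, Bag3 (0.90), a nucleotide exchange factor of HSP70, and St13 (0.89), the HSP70-interacting protein Hip. The others were Slc5a3 (0.95), a myo-inositol transporter, P4ha1 (0.94), a collagen prolyl hydroxylase, Ddit3 (0.94), the stress transcription factor CHOP, Asun (0.92), Rprd1a (0.90) and Fam98a (0.89). Those most like Cirbp were Abtb1 (r = 0.93), Slc20a2 (0.92), a phosphate transporter, Nit1 (0.92), Id2 (0.92), an inhibitor of helix-loop-helix factors, and Nab2 (0.92), a corepressor of EGR proteins. These values describe 16 libraries, which differed in depth and in clock phase, and they carry no test.

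Other chaperones were read from lists written from general knowledge with earlier results of these data known. Of 32 cytosolic co-chaperones and other heat shock proteins, all tested, edgeR called 0 in each of the 11 comparisons, in which 0% to 5.9% of all genes were called, and their median log2 fold change against controls was 0.03 to 0.12. Within groups, though, 12 of the 32 (37.5%) had r over 0.7 with Hsph1, beside 1.72% of all genes tested, and their median r was 0.63 beside 0.02. The TRiC chaperonin, which folds actin and tubulin, had a median r of 0.63 with 2 of 8 subunits over 0.7. Of 19 endoplasmic reticulum chaperones and stress genes 4 were over 0.7 (median 0.49), of 4 small heat shock proteins 1 (median 0.16), and of 10 mitochondrial chaperones 0 (median -0.08). Against Cirbp, 8 of the 32 co-chaperones had r under -0.7 (25%), beside 2.07% of all genes, and their median was -0.42.

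The small heat shock protein gene Hspb8 was higher at 6 months on day 2, at 179 ± 12.5 against 127 ± 6.06 CPM (SD, n = 3 each), with a log2 fold change of 0.49 (SE 0.12, adjusted p = 0.0326, edgeR). Dnaja3, a mitochondrial HSP40 gene, was lower at 6 months on day 6, at 91.8 ± 2.92 against 118.7 ± 9.15 CPM (SD, n = 3 each), with a log2 fold change of -0.37 (SE 0.10, adjusted p = 0.0844, edgeR). Hsf2bp, which encodes a protein that binds HSF2 and acts in meiosis, was higher in all 3 comparisons of age (adjusted p = 0.0276, 0.00358 and 0.00970, edgeR), with 0 to 6 counts in the 1-month and 13 to 83 counts in the 6-month libraries. The endoplasmic reticulum chaperones (19 tested), the TRiC subunits (8) and the cold-inducible and temperature-dependent RNA processing genes (6, Rbm3 included) held 0 calls by edgeR in all 11 comparisons. At a share of 0% to 5.9% over all genes, counts of 0 in lists of this size are near the background.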

How the data were processed

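RNA of mouse liver was sequenced in 16 libraries, each a pool of 3 mice. The authors mapped reads with TopHat2 2.0.13 to GRCm38 (Ensembl annotation, with Cufflinks 2.2.1, Cuffnorm, DESeq2 1.10.1 and cutadapt also in the submitters' processing notes) and deposited raw counts per gene. Which program counted them, and whether by strand, was not given in the sources used here. A further 16 columns of the authors' normalized counts and the comparison columns (fold changes, p-values, calls) were not used. Of 47729 genes, 10 without counts were left out. Groups were taken from the sample labels, which do not say that replicate numbers mark a shared batch.

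Genes were kept by filterByExpr over the 6 groups (15684 genes), scaled by TMM and tested with edgeR 4.0.16 (glmQLFit and glmQLFTest, with limma 3.58.1 under R 4.3.3) in a single fit to the 6 groups, with Benjamini-Hochberg adjustment over all genes and a threshold of 0.1. Biological variation between pools (common coefficient) was 0.218, and p-values measure the spread between pools. The fit was tested on data simulated with the same variation for every gene, lower than that of Hspa1a and Hspa1b, so that test does not cover genes as variable as these. Log2 CPM used a prior count of 2. Correlations used group-centred log2 CPM and exact permutation within groups (Python 3.11.15, numpy 2.4.6, scipy 1.17.1, pandas 2.3.3; plots with matplotlib 3.10.9). Lengths are unions of exons of the reference annotation on GRCm38.

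The members and lists were chosen with earlier results of these data known. Named genes were all 10 members, up to 4 genes per list with the smallest p among those that passed, the 10 genes most like Hsph1 and the 5 most like Cirbp, and Dbp, Arntl and Rbm3. Alternatives were DESeq2 1.42.0 (Wald test), its size factors, no filter on low counts, fits of the compared groups only, a replicate block, a clock phase covariate, Hspa1a and Hspa1b summed, each library left out, and the 3 libraries of lowest clock score left out; that score subtracts the mean log2 CPM of the Arntl-phase clock genes from the mean of the Dbp-phase ones. For correlations they were rho, no centring, the clock score, and the libraries farthest from the median left out.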

Additional observations from a re-analysis of the deposited data

How the results depend on the processing

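Of 264 alternative fits of the 11 comparisons, 263 gave the same number of calls among the 10 genes, and no gene other than Hspb1 was called in any of them. The exception was day 6 after DEN, 6 months against 1 month, where 1 gene, Hspb1, passed with clock phase as a covariate (log2 fold change 0.954). Leaving out each library in turn, the count of calls was 1 to 1 for controls and for day 2 between the ages and 0 to 0 elsewhere. The log2 fold change of Hspb1 was then 2.25 to 2.72 in controls (adjusted p from edgeR 0.00449 to 0.0857), 1.93 to 2.53 on day 2 (0.00112 to 0.0156) and 0.49 to 1.05 on day 6 (0.184 to 0.545). Where 1 control library is left, it is assumed to vary like the other groups. A replicate block changed no call among the 10 genes (0 on day 2 and 0 on day 6 after DEN at each age, 1 between the ages in controls with a log2 fold change of 2.45 for Hspb1, and 1 on day 2 with 2.23). Libraries of the same replicate number correlated at -0.302 to 0.588 in their deviations (median 0.0482, 16 of 36 pairs over 0.1). Those of different numbers correlated at -0.588 to 0.537 (median -0.041, 16 of 70 pairs over 0.1). The share over 0.1 was thus higher for the same number, with overlapping ranges. The labels do not say that the numbers mark a batch, and the numbers were not taken to pair samples. Over all genes, the counts called ranged over the alternatives from 109 to 815 (418 as reported) for age in controls, 388 to 2258 (926) on day 2, 247 to 1344 (701) on day 6, 0 to 131 (3) and 0 to 49 (0) for days 2 and 6 against controls at 1 month, 12 to 135 (50) and 9 to 93 (39) at 6 months, 0 to 86 (1) and 0 to 10 (2) for day 6 against day 2 at 1 and 6 months, and 0 to 23 (1) and 0 to 22 (2) for the difference between the ages on days 2 and 6; the cause was not tested. Of the relations to clock phase, 1 of 10 passed with no centring on group means and 0 to 0 with each library left out. Of those to Cirbp, 5 of 9 passed without the 2 farthest libraries and 6 to 9 with each library left out (6 without 6-month DEN day 2 replicate 3 or 6-month DEN day 6 replicate 2), and the r of Hspb1 turned to 0.0730 with no centring. Of the 36 pairs, 23 to 32 passed with each library left out. For Rbm3, 1 to 1 of its 2 relations passed, and its r with Cirbp turned to 0.0347 with no centring, 0.295 without the 3 low-Dbp libraries and 0.0331 without 1-month DEN day 6 replicate 1 (-0.41 to 0.0331 over the libraries left out). Hspa1a, at 6 to 108 counts, had the least precise values.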

Other observations

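Immediate early genes are switched on by cells within minutes of a stimulus. Of 16 tested, 3 were higher at 6 months in controls, 3 on day 2 and 2 on day 6 by edgeR, beside 2.67%, 5.9% and 4.47% of all genes called in either direction. Against controls 0 of the 16 were called at either age, beside 0% to 0.319% of all genes, so a count of 0 says little about these genes. For the difference between the ages in the response to DEN, no gene of this list was called. Of all genes, 0.00638% were called there on day 2 and 0.0128% on day 6. Nr4a1, an orphan nuclear receptor gene, was at 1.06 ± 0.0367 CPM in the 1-month and 16.2 ± 10.4 CPM in the 6-month controls (SD, n = 2 each; log2 fold change 3.93, SE 0.78, adjusted p = 0.0249, edgeR), and it was also higher on days 2 (2.66, adjusted p = 0.0276, edgeR) and 6 (3.37, adjusted p = 0.0120, edgeR). Fos and Egr2 were higher in controls (2.43 and 2.61), Egr2 and Btg2 on day 2 (2.04 and 0.82) and Atf3 on day 6 (1.43). Btg2 was at 22.9 to 23.98 CPM in the 6-month controls, at 45.7 to 56.1 CPM on day 2 and at 38.9 to 63.0 CPM on day 6. Its differences between controls and DEN did not pass over all genes. The median log2 fold change of the 16 genes was 0.67, 0.46 and 0.49 in these 3 comparisons, beside -0.01 over all genes. Within groups the 16 genes had a median r of -0.20 with Hsph1 over the 16 libraries, from -0.84 (Nr4a1) to 0.49 (Egr2), and 3 of them (18.8%) lay under -0.7, beside 1.64% of all genes tested. Among clock genes, Nr1d1 was higher (log2 fold change 1.35) and Cry1 lower (-1.37) at 6 months on day 6, with adjusted p = 0.0862 and 0.0828 from edgeR.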
